A study of Mus musculus with 4 samples.

Results

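The genes described here are 37 listed type I interferon response genes, taken by symbol from the 55536 mouse genes of the deposited tables. They were measured in T cells from mouse spleen by total RNA sequencing, which reads RNA with and without a poly(A) tail. All samples belong to 1 group, so no treated, infected or mutant cells stand against them and the comparisons are between members, between members and other genes, and between libraries. The group consists of T cells of male B6CASTF1/J mice, a first-generation cross with a C57BL/6 dam and a CAST/EiJ sire, virgin and 66 days old, and the labels name the antigen CD3. No allele or agent other than the cross is given in the labels. There were 4 biological replicates, called libraries 1 to 4 after their replicate numbers, each started from 300 ng of total RNA to which spike-in RNAs were added. They share 1 donor identifier and the labels do not say whether each came from a separate animal, so every SD and p-value measures the spread between these samples, which may be technical.

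Type I interferons are secreted antiviral proteins that bind a receptor of the chains IFNAR1 and IFNAR2, which activates the kinases JAK1 and TYK2. The signal passes to a complex that contains IRF9 and binds the interferon-stimulated response element (ISRE) in front of many of the genes described here. Many of these genes encode sensors or inhibitors of viral RNA and DNA, and T cells are known to express part of the set at rest.

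The members, listed by symbol as interferon response genes, divide by whether they hold the ISRE. The response acts through this element, so the listing is not independent of it and its share among the members is a description. Promoter windows from RefSeq on GRCm38.p6, the build also called mm10, reach from 250 bases before to 50 bases after a gene start, and 26 of the 37 members had an entry. The core, which is GAAA, any 2 bases and GAAA, was searched on both strands, with overlapping matches counted separately, and 12 of the 26 members (46.2%) held it in a window, against 3.99% of 27025 genes. The core TTCNNNGAA, known as the gamma-activated sequence, was found in 8 of the 26 members (30.8%), against 9.55% of genes. The part before the start is printed in lower case from 5′ to 3′ on the gene's strand, with ISRE core matches in capitals. A match is a description of the letters, not a measured binding site. The first 6 windows are those of members with a match whose levels are described below, and the last 2 are those of Xaf1, which varied between libraries, and Sp100, the member with the highest level, neither of which held the core.
Isg15: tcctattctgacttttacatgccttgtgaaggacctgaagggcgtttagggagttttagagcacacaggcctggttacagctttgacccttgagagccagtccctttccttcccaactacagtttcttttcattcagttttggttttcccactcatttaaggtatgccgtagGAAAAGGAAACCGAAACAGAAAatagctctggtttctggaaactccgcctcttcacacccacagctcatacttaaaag
Ifit1: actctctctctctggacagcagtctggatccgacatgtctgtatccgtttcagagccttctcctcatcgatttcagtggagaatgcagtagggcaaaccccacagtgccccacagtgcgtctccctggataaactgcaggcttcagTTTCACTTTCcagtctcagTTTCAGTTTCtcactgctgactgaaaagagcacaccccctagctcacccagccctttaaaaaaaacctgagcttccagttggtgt
Ifit3: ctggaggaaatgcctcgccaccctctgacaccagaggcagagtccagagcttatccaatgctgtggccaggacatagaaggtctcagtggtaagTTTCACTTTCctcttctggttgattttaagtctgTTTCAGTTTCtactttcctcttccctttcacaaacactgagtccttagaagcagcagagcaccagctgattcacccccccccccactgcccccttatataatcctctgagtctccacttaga
Ifit3b: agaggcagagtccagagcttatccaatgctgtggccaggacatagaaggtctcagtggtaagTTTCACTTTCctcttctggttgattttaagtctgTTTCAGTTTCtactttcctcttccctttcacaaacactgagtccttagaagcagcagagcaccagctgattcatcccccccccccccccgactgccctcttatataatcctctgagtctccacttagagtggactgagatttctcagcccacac
Oas3: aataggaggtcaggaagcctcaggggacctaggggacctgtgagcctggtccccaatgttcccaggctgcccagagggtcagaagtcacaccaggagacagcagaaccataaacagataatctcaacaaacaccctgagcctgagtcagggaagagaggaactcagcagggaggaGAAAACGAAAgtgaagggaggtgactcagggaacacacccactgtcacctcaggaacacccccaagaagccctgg
Rsad2: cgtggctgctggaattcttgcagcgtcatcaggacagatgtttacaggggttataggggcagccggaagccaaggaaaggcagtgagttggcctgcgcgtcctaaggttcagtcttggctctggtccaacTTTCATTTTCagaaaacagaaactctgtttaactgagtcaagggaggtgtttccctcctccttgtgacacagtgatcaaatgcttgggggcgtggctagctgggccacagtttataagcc
Xaf1: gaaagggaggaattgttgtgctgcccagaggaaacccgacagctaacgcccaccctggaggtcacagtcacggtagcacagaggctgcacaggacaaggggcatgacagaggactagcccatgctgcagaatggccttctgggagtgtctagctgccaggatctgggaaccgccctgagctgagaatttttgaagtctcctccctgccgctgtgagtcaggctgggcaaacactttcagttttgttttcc
Sp100: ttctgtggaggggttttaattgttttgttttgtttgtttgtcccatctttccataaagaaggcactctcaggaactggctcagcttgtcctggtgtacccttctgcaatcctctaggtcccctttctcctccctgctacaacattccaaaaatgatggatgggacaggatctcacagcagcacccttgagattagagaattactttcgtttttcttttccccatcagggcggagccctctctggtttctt
These are chr4:156200819-156201068 (minus strand) for Isg15, chr19:34640639-34640888 (plus strand) for Ifit1, chr19:34583279-34583528 (plus strand) for Ifit3, chr19:34607707-34607956 (plus strand) for Ifit3b, chr5:120777660-120777909 (minus strand) for Oas3, chr12:26456453-26456702 (minus strand) for Rsad2, chr11:72301379-72301628 (plus strand) for Xaf1 and chr1:85649738-85649987 (plus strand) for Sp100. The Isg15 window held 3 overlapping matches in 1 run. The windows of Ifit1, Ifit3 and Ifit3b each held the same pair of letters, TTTCACTTTC followed by TTTCAGTTTC. The window of Ifit3 was identical to that of Ifit3b in 217 of 282 aligned columns (77.0%), and Ifit1 to Ifit3 in 52.9%. The first match of the pair starts at base -156 from the gene start in Ifit3 and at -188 in Ifit3b, so these windows are offset. Columns that differ thus include their overhanging ends, and identity within the shared part was not computed. Unrelated windows were not aligned, so the 52.9% has no baseline. The other members with the core in a window were Bst2, Ddx58, Eif2ak2, Ifih1, Oas1a and Trim30a. The 8 with the gamma-activated core were Adar, Bst2, Eif2ak2, Ifi35, Ifit2, Isg20, Oas1a and Samhd1. Mx1, Mx2, Oas2, Usp18, Rtp4, Ifi27, Ifi27l2a, Dhx58, Zbp1, Parp14 and Parp9 had no entry.

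The label T cell was checked first on 8 T cell genes. All 8 exceeded 1 TPM (a transcript level scaled to transcript length and to the library) in every library, with Trac, the constant region of the T cell receptor alpha chain, at 501 ± 21.6 TPM and Cd3e at 302 ± 3.86 TPM (SD, n = 4). Markers of other cells were unequal between libraries. The summed TPM of 7 B cell genes was 12.9, 16.1, 10.9 and 129 in libraries 1 to 4, that of 5 erythroid genes 24.1, 47.2, 11.6 and 478, and that of 6 neutrophil genes 7.63, 31.9, 10.7 and 9.59. Summed levels were nearer each other for 8 monocyte and macrophage genes, at 28.2, 30.4, 25.5 and 31.4 TPM, and for 6 plasmacytoid dendritic cell genes, at 40.7, 37.4, 40.3 and 46.0 TPM. A sum follows its highest genes, which in the plasmacytoid list were Ccr9 at 18.1 ± 1.32 TPM and Pacsin1 at 14.2 ± 1.80 TPM (SD, n = 4 each). Some genes of both lists were less even, such as Siglech of the plasmacytoid list, with 1.20, 0.77, 0.88 and 2.34 TPM in libraries 1 to 4. In a test of counts described below, 4 of 6 monocyte and 2 of 4 plasmacytoid genes tested differed beyond counting error, Siglech not among them. The share over all tested genes was 30.6%. The 6 B cell, 3 neutrophil and 2 erythroid genes with enough counts to be tested all passed the goodness-of-fit test of edgeR described below, and no marker of these 3 lists or of monocytes was at 0 in any library. DESeq2 marked the 6 B cell and 2 erythroid genes as dispersion outliers, but 0 of the 3 neutrophil genes. Of the plasmacytoid list Cox6a2 was at 0 in libraries 3 and 4. Library 4 thus stood apart in B cell and erythroid RNA and library 2 in neutrophil RNA. Totals were between 14584388 and 17335895 counts. In bulk RNA, fewer cells of a type and less RNA per cell cannot be told apart.

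The members were expressed in these T cells, over a wide range of levels. In every library 35 of the 37 had at least 1 TPM, against 21.0% of all 55536 genes, of which 21951 are protein-coding. The share over protein-coding genes alone was not computed. By mean level 18 members reached 10 TPM, 18 lay between 1 and 10 TPM, and only Rsad2 was lower. Their median was 8.84 TPM, against 0.48 TPM over protein-coding genes, many of which are silent in T cells. The sum of the 37 was 907, 920, 869 and 927 TPM in libraries 1 to 4, or 906 ± 25.9 TPM (SD, n = 4). Of it, Sp100, Samhd1, Ifi27l2a and Adar made up 53.0%. The members took 0.187% ± 0.00552 of all gene counts.

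**Figure D1:**
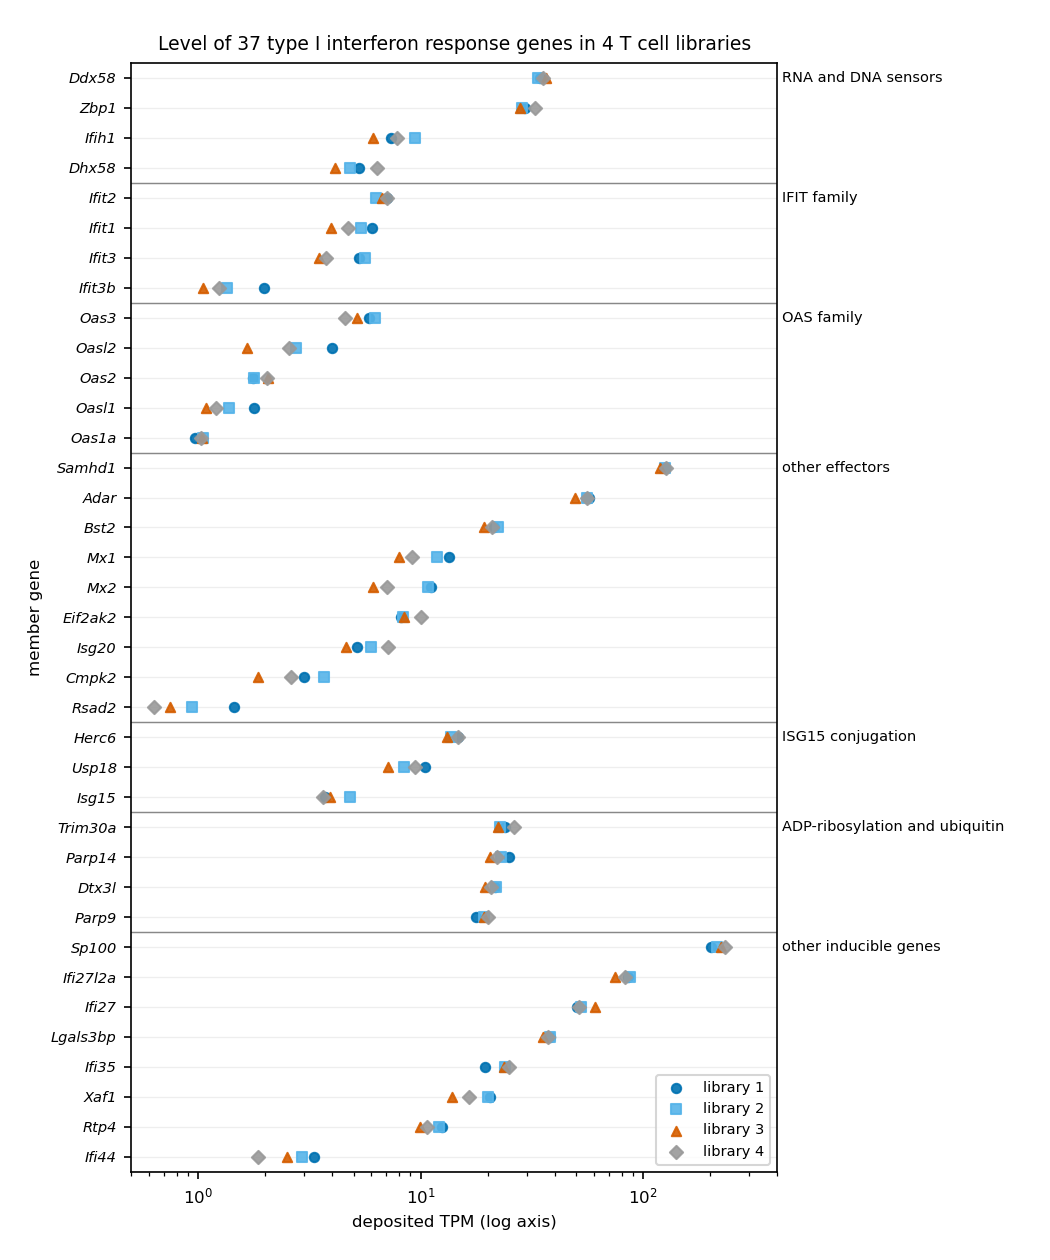
Deposited TPM of the 37 members (log axis), 1 point per library, grouped by role and ordered by mean level within a role. Sp100 and Samhd1 sit to the right near 219 and 124 TPM, and Rsad2 and Oas1a to the left near 1 TPM; the triangles of library 3 are often the leftmost point of a row.

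Among the 4 sensors of foreign nucleic acid, Ddx58 (chr4:40203773-40239828), which encodes the RNA sensor RIG-I, had 34.6, 33.6, 36.6 and 35.7 TPM in libraries 1 to 4. It was the most even of the sensors. Zbp1, a sensor of Z-form nucleic acids that can trigger cell death, had 29.5, 28.7, 28.0 and 32.6 TPM. Ifih1, the RNA sensor MDA5, was lower, with 7.35, 9.45, 6.12 and 7.79 TPM. Dhx58, which encodes LGP2, a relative of both without signalling domains, had 5.30, 4.82, 4.13 and 6.38 TPM. Library 3 was the lowest for Zbp1, Ifih1 and Dhx58 and the highest for Ddx58. The log2 ratio of Ddx58 to Ifih1, on the TPM + 1 scale used for all ratios of 2 genes, averaged 2.07 ± 0.274 (SD, n = 4) and was positive in each library.

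The IFIT proteins bind viral RNA that lacks the cap modifications of host mRNA, and their genes lie side by side on chromosome 19. Ifit2 (chr19:34550694-34576419) had 7.08, 6.31, 6.73 and 7.08 TPM in libraries 1 to 4. Ifit1 (chr19:34640871-34650009) had 6.06, 5.40, 3.94 and 4.71 TPM. Ifit3 (chr19:34583531-34588731) had 5.30, 5.62, 3.49 and 3.77 TPM, and its near copy Ifit3b (chr19:34607970-34613401) had 1.98, 1.35, 1.05 and 1.24 TPM. Ifit1 and Ifit3 were lower in libraries 3 and 4 than in libraries 1 and 2, which Ifit2 was not. Of the 31-base words of Ifit3, 61.8% also occur in Ifit3b, and 53.8% of those of Ifit3b in Ifit3, so the division of reads between these genes is uncertain. The log2 ratio of Ifit3 to Ifit3b was 1.20 ± 0.198 (SD, n = 4), positive in all libraries, while that of Ifit1 to Ifit3 was 0.13 ± 0.129 and negative in library 2.

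OAS enzymes make short 2′-5′-linked oligoadenylates in the presence of double-stranded RNA, which switch on the ribonuclease RNase L. This family had the lowest levels by role. Oas3 (chr5:120753098-120777661) led it with 5.86, 6.23, 5.20 and 4.59 TPM in libraries 1 to 4. Oasl2 had 3.98, 2.76, 1.66 and 2.55 TPM, and Oasl1, which in the mouse restrains translation of the factor IRF7, had 1.78, 1.38, 1.08 and 1.20 TPM. Both of these OAS-like genes were highest in library 1 and lowest in library 3 in TPM. Oas2 had 1.77, 1.79, 2.07 and 2.04 TPM, and Oas1a had 0.97, 1.05, 1.04 and 1.03 TPM. Oas1a shares 68.7% of its 31-base words with Oas1g, and its value is uncertain for that reason. The deposited effective length of Oasl1 differed 2.02-fold between libraries and that of Oasl2 1.48-fold, so TPM and counts do not order the libraries alike for them. By counts scaled to library size Oasl1 was highest in library 3.

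Other antiviral effectors reached from Samhd1, the second highest member, to Rsad2, the lowest. Samhd1 (chr2:157097533-157135265), an enzyme that breaks down the nucleotides needed for viral DNA synthesis, had 125, 125, 119 and 126 TPM in libraries 1 to 4. Adar (chr3:89715022-89753446), which edits adenosine to inosine in double-stranded RNA, had 57.3, 56.1, 49.6 and 55.9 TPM. Both were lowest in library 3, Samhd1 by less than 6 TPM below the next library. Bst2, tetherin, which holds budding virus at the cell surface, had 21.4, 22.2, 19.3 and 20.9 TPM. Eif2ak2, the kinase PKR that stops translation on double-stranded RNA, had 8.19, 8.32, 8.42 and 10.1 TPM. Adar exceeded Eif2ak2 in each library, by a log2 ratio of 2.52 ± 0.146 (SD, n = 4). Isg20, an exonuclease of single-stranded RNA, had 5.18, 5.98, 4.62 and 7.10 TPM.

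Mx1 and Mx2 encode dynamin-like GTPases that block viruses in the nucleus and in the cytoplasm, and the C57BL/6 copy of Mx1 is known to lack coding exons. Mx1 (chr16:97447035-97462907) had 13.4, 11.8, 8.0 and 9.15 TPM in libraries 1 to 4. Mx2 (chr16:97535308-97560900), annotated as a polymorphic pseudogene, had 11.1, 10.8, 6.09 and 7.09 TPM. For both genes, libraries 1 and 2 lay above libraries 3 and 4 in TPM. The highest library was 1.67 times the lowest for Mx1 and 1.82 times for Mx2. The second deposited quantification gave Mx1 11.5, 10.9, 9.73 and 12.4 TPM, with library 4 highest, so its order of libraries depends on the quantification. For Mx2 it gave 13.1, 16.9, 10.8 and 11.2 TPM. Mx1 and Mx2 share 8.61% of the 31-base words of Mx1 and 12.1% of those of Mx2. Values rest on assignment to the C57BL/6 reference, and reads of the CAST/EiJ allele that differ from it may be lost.

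Cmpk2 and Rsad2 lie on chromosome 12 and are transcribed away from each other from starts 12752 bases apart. Cmpk2, a mitochondrial nucleotide kinase, had 2.98, 3.69, 1.85 and 2.60 TPM in libraries 1 to 4. Rsad2 (chr12:26442746-26456452), viperin, which makes a chain-terminating nucleotide from CTP, had 1.45, 0.94, 0.75 and 0.63 TPM. Library 3 was lowest for Cmpk2 and library 4 for Rsad2 in TPM. The expected counts of Rsad2 were 50, 43, 19 and 29, so by counts library 3 was the lowest for it too. Its deposited effective length differed 2.06-fold between libraries. The log2 ratio of Cmpk2 to Rsad2 was 0.96 ± 0.297 (SD, n = 4), but 1.49 with a pseudocount of 0.1 and 0.50 in the second quantification, so its size depends on the processing.

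ISG15 is a ubiquitin-like protein that is attached to other proteins during the interferon response. Isg15 itself (chr4:156199424-156200818) was low, with 3.72, 4.83, 3.93 and 3.65 TPM in libraries 1 to 4. Herc6, the main ligase for this attachment in the mouse, had 14.8, 13.7, 13.2 and 14.7 TPM. Usp18, which removes ISG15 and dampens signalling at the receptor, had 10.4, 8.42, 7.10 and 9.42 TPM. In gene TPM the modifier was below its ligase and its protease in every library, with log2 ratios of 1.59 ± 0.201 for Herc6 to Isg15 and 0.96 ± 0.301 for Usp18 to Isg15 (SD, n = 4). Counting protein-coding transcripts alone, Herc6 had 4.69, 4.82, 4.95 and 4.19 TPM and Usp18 6.98, 5.18, 4.62 and 6.51 TPM, and Herc6 was then no higher than Isg15 in library 2. Herc6 shares 25.0% of its 31-base words with Gm45193, which overlaps it on the same strand, so its level is uncertain.

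The genes of ADP-ribosylation and ubiquitin transfer were close to each other. Parp14, which adds single ADP-ribose units, had 24.9, 22.9, 20.6 and 22.2 TPM in libraries 1 to 4. Dtx3l, a ubiquitin ligase that works in a complex with PARP9, had 21.6, 21.9, 19.6 and 20.8 TPM, and Parp9 had 17.8, 19.2, 19.3 and 20.1 TPM. The starts of Parp9 and Dtx3l are 681 bases apart on opposite strands of chromosome 16 and the genes overlap. Whether counting used strand is not given in the sources used here, so reads of the overlap cannot be told apart. Their log2 ratio, Parp9 to Dtx3l, was -0.13 ± 0.115 (SD, n = 4), and the second deposited quantification gave 0.12. Trim30a, which restrains Toll-like receptor signalling in the mouse, had 24.0, 22.8, 22.3 and 26.3 TPM.

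The remaining 8 members included the highest. Sp100 (chr1:85649988-85709998), a component of nuclear bodies, had 202, 215, 223 and 234 TPM in libraries 1 to 4, and 12.4% of its 31-base words occur in other genes. Ifi27l2a and Ifi27 are neighbouring genes of small hydrophobic proteins on chromosome 12. Ifi27l2a had 85.5, 87.6, 74.6 and 82.9 TPM, and Ifi27 had 50.2, 52.5, 61.1 and 51.5 TPM. Library 3 was the lowest for Ifi27l2a and the highest for Ifi27, and the log2 ratio of Ifi27 to Ifi27l2a was -0.61 ± 0.220 (SD, n = 4), negative in each library. Lgals3bp, a secreted glycoprotein that binds galectin-3, had 38.3, 38.0, 35.3 and 37.3 TPM. Ifi35 had 19.5, 24.1, 23.8 and 25.0 TPM. Xaf1 (chr11:72301629-72313733), an antagonist of the apoptosis inhibitor XIAP, had 20.6, 20.1, 13.8 and 16.5 TPM, with libraries 1 and 2 above libraries 3 and 4. Rtp4, a receptor transporter protein, had 12.4, 12.1, 9.89 and 10.7 TPM. The second quantification gave Rtp4 22.1, 26.1, 19.4 and 20.4 TPM. The log2 ratio of the second to the first was 0.97, against a median of 0.32 over members and 0.40 over tested genes. Rtp4 shares 14.5% of its 31-base words with Gm45338, which overlaps it on the same strand, so its level is uncertain. Ifi44 had 3.30, 2.92, 2.51 and 1.86 TPM.

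Ratios were taken for 12 pairs of relatives, neighbours or partners. In 11 pairs the sign was the same in all 4 libraries, and the exception was Ifit1 to Ifit3. Beside those above, Oas3 exceeded Oas2 by a log2 ratio of 1.14 ± 0.236, Oasl2 exceeded Oasl1 by 0.64 ± 0.204, and Mx1 exceeded Mx2 by 0.26 ± 0.102 (SD, n = 4). With 4 libraries the exact two-sided sign-flip permutation test cannot give a p smaller than 0.13 (rounded), so none could pass 0.05. That p was reached by these 11, 0.136 after Benjamini-Hochberg adjustment over 12 pairs, and Ifit1 to Ifit3 had an exact permutation p of 0.25. In the second quantification the ratio of Mx1 to Mx2 was -0.19, so the order of these related genes depends on the quantification.

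Whether the members varied between libraries was asked at 2 levels: beyond the spread usual for genes of their abundance, and beyond counting error alone. At the first level no member passed the goodness-of-fit test of edgeR with Benjamini-Hochberg adjustment over 13118 genes, of which 1.40% were called. At an unadjusted p under 0.05 there were 4 of 37, against 4.60% of all tested genes, namely Xaf1, Mx2, Mx1 and Oas3. Their unadjusted edgeR p-values were 0.0158, 0.0233, 0.0348 and 0.0373. With spike-in scaling 0 members reached it, beside 519 of all 13118 genes, and with library totals 2 did, beside 608. The number was 1 without library 1, beside 524 of 13379 genes, 1 without library 3, beside 545 of 13289, and 9 without library 4, beside 711 of 13295. DESeq2 marked none of the 37 as a dispersion outlier, against 154 of all tested genes. The gene-wise coefficient of variation lay above the trend for 17 members (45.9%), against 23.0% of tested genes.

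At the second level, 20 of the 37 members (54.1%) differed between libraries by more than counting error at an adjusted p under 0.05, against 30.6% of all tested genes, in a chi-square test of counts adjusted over all genes. They were Mx1, Mx2, Xaf1, Oas3, Oasl2, Ifit1, Ifit3, Ifit3b, Adar, Dtx3l, Parp14, Dhx58, Ifih1, Cmpk2, Rsad2, Samhd1, Usp18, Rtp4, Lgals3bp and Ifi27l2a. This count rested on library 3, without which it was 9, beside 3169 of 13289 genes. It was 15 without library 1, beside 3179 of 13379 genes, and 15 without library 2, beside 3084 of 13304. Without library 4 it was 19, beside 2485 of 13295 genes. With spike-in scaling it was 28 of 37, beside 7890 of 13118 genes, so the background rose too. The 9 were Mx1, Mx2, Adar, Oas3, Parp14, Ifit1, Xaf1, Dtx3l and Ifit3. The median range between the highest and the lowest library was 0.35 on the log2 CPM scale (CPM, counts scaled to library size, here by the trimmed mean of M-values, TMM), against 0.27 over all tested genes, and without library 3 it was 0.20 against 0.22.

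**Figure D2:**
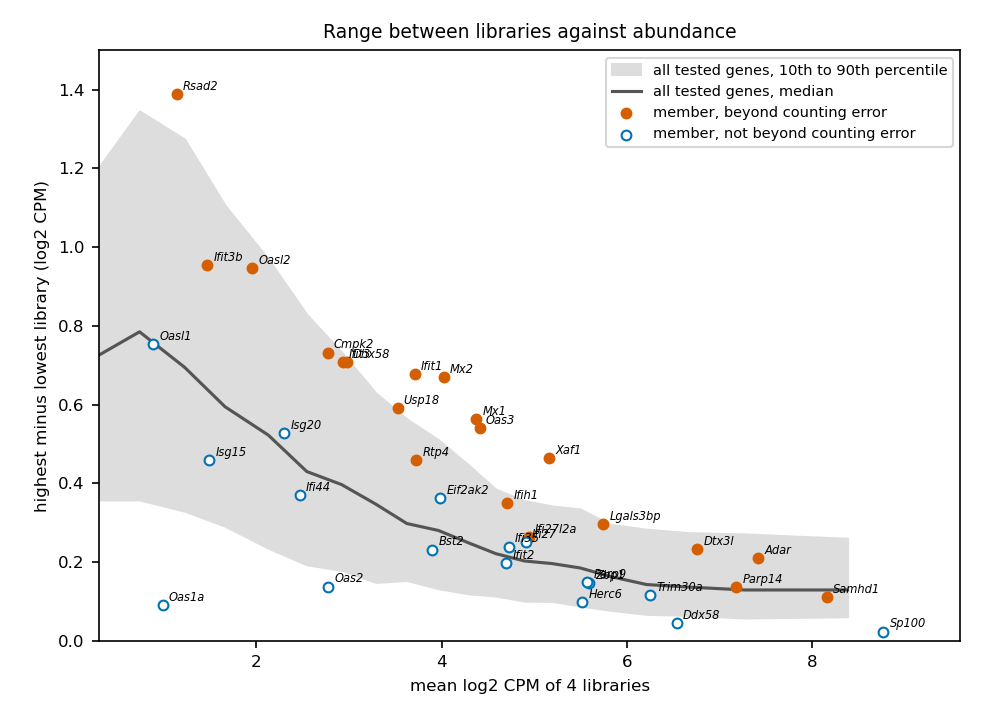
Highest minus lowest library in log2 CPM, against the mean log2 CPM of 4 libraries, for the 37 members (points) over the 10th to 90th percentile (band) and median (line) of all tested genes in 20 bins of abundance. Filled points differ by more than counting error (20 members). Rsad2, Xaf1, Mx1, Mx2, Oas3, Ifit1, Usp18 and Lgals3bp lie above the 90th percentile of their bin, and Sp100 and Ddx58 lie near the bottom.

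Library 3 was lowest for most members. By TPM it was the lowest library for 24 of 37 members (64.9%), against 20.0% of tested genes. The others were lowest in library 1 for 7 members, in library 2 for 2 and in library 4 for 4, against 36.4%, 27.2% and 16.4% of tested genes. Libraries 1 to 4 were the highest for 16, 9, 3 and 9 members, against 15.5%, 20.3%, 24.7% and 39.5% of tested genes. By TMM-scaled log2 CPM, which does not divide by effective length, library 3 was the lowest for 22 members (59.5%), against 23.6%, and libraries 1, 2 and 4 for 4, 3 and 8, against 23.1%, 25.1% and 28.2%. By the same measure libraries 1 to 4 were the highest for 19, 14, 2 and 2 members, against 24.7%, 23.9%, 22.8% and 28.5%. Of the 20 members beyond counting error, 18 were lowest in library 3 by this measure, 13 were highest in library 1 and 7 in library 2, against 21.7%, 23.7% and 24.0% of the 4008 genes beyond counting error. Since the test that chose these 20 rests on library 3, their order is a description. The exceptions were Oas3 and Parp14, which were lowest in library 4. The median deviation of the members from their 4-library mean was 0.10, 0.08, -0.13 and -0.04 log2 CPM in libraries 1 to 4, against 0.00 in each library for all tested genes. On the log2(TPM + 1) scale the mean over the members was 3.68, 3.66, 3.47 and 3.59 in libraries 1 to 4, and 3.60 ± 0.098 overall (SD, n = 4).

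**Figure D3:**
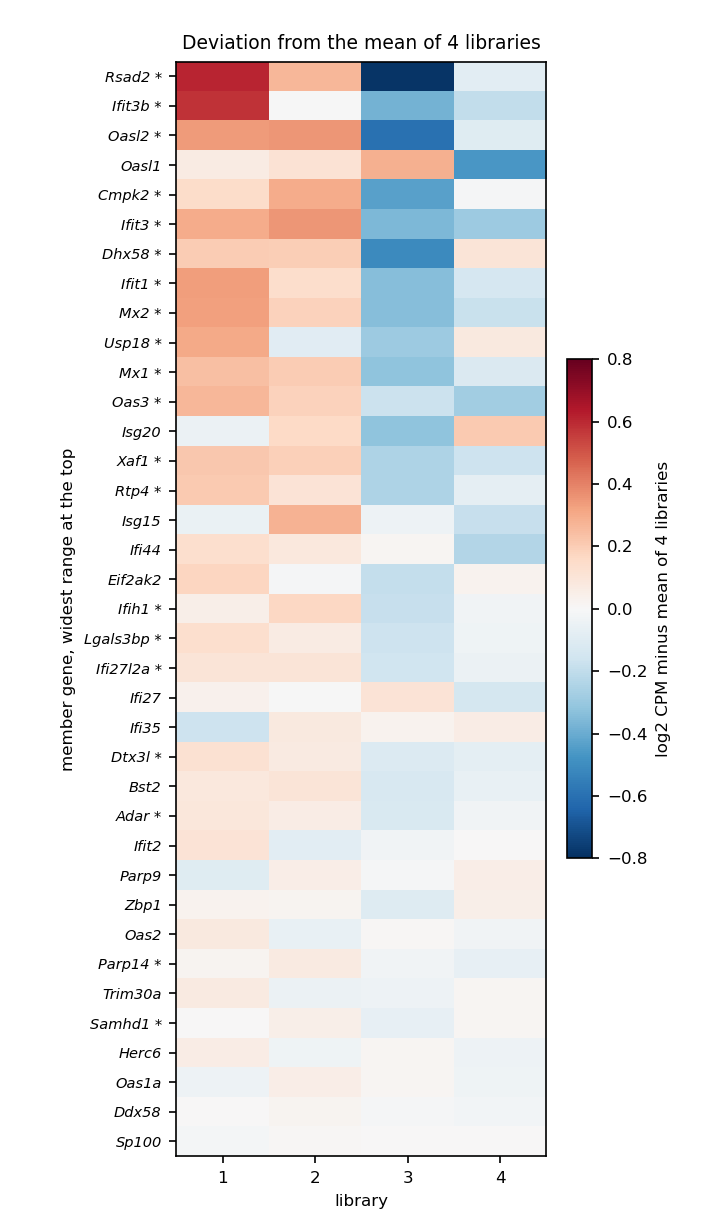
Deviation of each member from its mean of 4 libraries, in log2 CPM, with the widest range at the top. Red is above and blue below the mean, and a star marks the 20 members that differ by more than counting error. The upper rows are mostly red in libraries 1 and 2 and blue in library 3, and the lowest rows, Sp100 and Ddx58, are nearly white.

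Library 3 was also the lowest for most members under other scaling, but the highest library changed. With scaling by the spike-in RNAs, library 3 was lowest for 29 members (78.4%), against 43.5% of tested genes, library 1 was highest for 5 members, against 7.40%, and library 4 for 17, against 68.2%. That scaling moved the median of all tested genes by -0.08, 0.02, -0.09 and 0.15 in libraries 1 to 4, and the members' median deviation was then 0.02, 0.09, -0.21 and 0.11, above that of all genes in libraries 1 and 2 and below it in libraries 3 and 4. The second quantification gave 23 members lowest in library 3 (62.2%), against 30.4%, with library 1 highest for 7, against 13.1%, and library 4 for 15, against 53.3%. The median deviations by role were not compared by a test, and most roles hold few genes. In libraries 1 to 4 they were 0.31, 0.07, -0.35 and -0.17 log2 CPM for the 4 IFIT genes and 0.15, 0.16, -0.32 and -0.03 for the 9 other effectors, from Samhd1 to Rsad2. They were 0.04, 0.09, -0.14 and 0.01 for the 4 sensors, and 0.12, 0.08, -0.08 and -0.06 for the 8 remaining members, from Sp100 to Ifi44. The OAS family did not have its lowest median in library 3, with 0.08, 0.12, 0.01 and -0.10. The 3 genes of ISG15 conjugation had 0.06, -0.03, -0.04 and -0.04, and the 4 genes of ADP-ribosylation and ubiquitin 0.05, 0.06, -0.03 and -0.02. The B cell, erythroid and monocyte sums were also lowest in library 3, at 10.9, 11.6 and 25.5 TPM, and library 3 had 16439475 counts, the second highest total. Other sums were not: the neutrophil sum was lowest in library 1, at 7.63 TPM, and the plasmacytoid sum in library 2, at 37.4 TPM. Sums of 5 natural killer and 5 conventional dendritic cell genes were lowest in library 2, at 17.9 and 1.31 TPM. In library 3 the conventional dendritic sum was 1.39 TPM. By TMM-scaled log2 CPM, 5 of the 6 tested monocyte genes were lowest in library 3, against 23.6% of tested genes, with a median deviation of -0.35. Of the 4 tested natural killer genes 1 was, with a median of 0.02. Of the 2 tested conventional dendritic genes 1 was, with a median of -0.43. The part of such cells in the members' values was not tested.

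The receptors, the signalling chain and the regulatory factors were expressed. All 10 genes of the receptors and their signalling chain had at least 1 TPM in every library, among them Jak1 at 171 ± 6.08 TPM and Ifngr1, a chain of the interferon gamma receptor, at 70.1 ± 5.59 TPM (SD, n = 4 each). None of the 10 passed the edgeR test, with 0 at an unadjusted p under 0.05 and 0 DESeq2 outliers. Jak1, Ifngr1 and Tyk2 differed beyond counting error, and the median deviations were -0.02, 0.07, -0.01 and -0.03 log2 CPM in libraries 1 to 4. Of 6 regulatory factors, Irf1 stood at 160 ± 11.6 TPM, Irf2 at 60.0 ± 3.95 TPM and Irf3 at 45.7 ± 4.72 TPM. Irf8, a factor of B cells and myeloid cells, had 4.64, 4.87, 4.26 and 9.07 TPM and was the only one of these 6 to pass edgeR's test (adjusted p = 0.00749), highest in the library with the most B cell RNA. Irf7, which drives interferon genes and is itself induced by interferon, had 17.7, 18.3, 11.6 and 16.2 TPM, lowest in library 3.

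Among 11 genes of nucleic acid sensing and its adaptors, 10 were tested. Ikbke, a kinase that activates IRF3 and IRF7, led with 99.4 ± 4.88 TPM, followed by Tmem173, which encodes STING, at 53.0 ± 5.64 TPM and Tbk1 at 24.7 ± 3.69 TPM (SD, n = 4 each). Tlr9, a sensor of DNA in B cells and plasmacytoid dendritic cells, had 0.76, 1.02, 0.71 and 2.45 TPM and was the only one called by edgeR (adjusted p = 0.0233), though it was no DESeq2 outlier. Of 5 genes that restrain the pathway, none was called by edgeR, with 0 at an unadjusted p under 0.05 and 0 DESeq2 outliers, and Ptpn6, Pias1 and Socs3 led with 59.4 ± 3.10, 39.1 ± 2.91 and 21.8 ± 3.30 TPM. Interferon genes themselves were nearly silent: 9 of 11 had 0 counts in all libraries, which allows up to 3 counts, or 0.174 to 0.206 CPM per library, for counting error only. Ifna11 had 1 count, in library 4, and Ifng, the type II interferon, had 2.98, 5.37, 5.76 and 5.05 TPM, lowest in library 1. Of 28 further inducible genes outside the members, 26 were tested, and none passed the edgeR test, with 1, Slfn1, at an unadjusted p under 0.05 and 0 DESeq2 outliers. Beyond counting error 15 of the 26 differed, against 30.6% of all tested genes. B2m, the light chain of MHC class I, led these at 853 ± 19.1 TPM, followed by Ly6e at 156 ± 6.88 TPM and Nlrc5, the activator of MHC class I genes, at 144 ± 7.46 TPM. Their median deviations were 0.04, 0.04, -0.04 and -0.03 log2 CPM in libraries 1 to 4, and 8 of the 26 were lowest in library 3, against 23.6% of tested genes, a share near the background.

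The levels also depend on how reads were given to transcripts. For the 27 members at 5 TPM or more, the leading transcript by deposited share was protein-coding in 24. The exceptions were Ifi27-209, with a retained intron, at 49.0% ± 1.47 of its gene, Ifih1-203, also with a retained intron, at 31.6% ± 4.20, and Eif2ak2-203, a processed transcript, at 34.7% ± 4.47 (SD, n = 4 each). Over all members, protein-coding transcripts took 82.9% ± 0.675 of counts, retained introns 8.25% ± 0.219 and transcripts marked for nonsense-mediated decay 6.05% ± 0.562. The same classes took 80.4% ± 0.350, 13.0% ± 0.327 and 3.35% ± 0.110 over all protein-coding genes (SD, n = 4 each). In TPM the shares lay closer together, with retained introns at 18.0% ± 0.234 in members and 18.2% ± 0.336 in all protein-coding genes, and nonsense-mediated decay at 4.30% ± 0.291 in members and 3.86% ± 0.0381 in all. Sp100, the member with the most counts, had 19.9% ± 1.19 of them in transcripts marked for nonsense-mediated decay (SD, n = 4). The members' share of that class by counts therefore leans on this gene. Protein-coding transcripts held less than 50% of the TPM of 6 of the 27 members, among them Ddx58 with 38.6% ± 3.57 and Mx1 with 43.3% ± 5.88 (SD, n = 4 each). TPM weighs short transcripts more than counts do. By counts the share was 55.7% for Ddx58, 56.2% for Mx1, 67.9% for Ifih1 and 80.4% for Eif2ak2. It stayed below 50% for Ifi27, at 42.6%, and Herc6, at 48.7%. For Mx1 the leading transcript, Mx1-202, encodes 397 residues and took 42.1% ± 6.92.

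**Figure D4:**
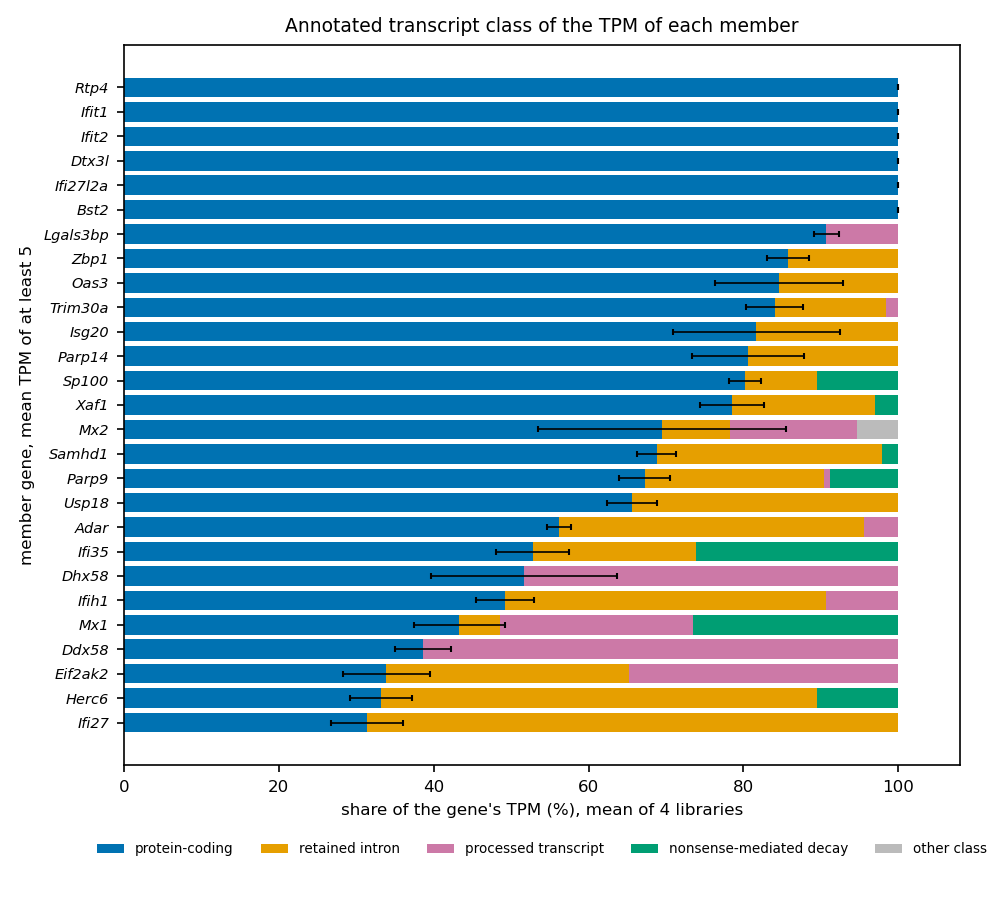
Share of each gene's TPM by annotated transcript class, as the mean of 4 libraries, for the 27 members with a mean of at least 5 TPM; black lines are the SD of the protein-coding share. The bars of Ifit1, Ifit2 and Bst2 are wholly protein-coding, while those of Ifi27, Herc6, Eif2ak2, Ddx58, Mx1 and Ifih1 are less than 50% so.

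Adar was examined by isoform because the long form, p150, is the one induced by interferon and the short form, p110, is made constitutively. The long-form transcripts Adar-203, of 1178 residues, and Adar-201, of 1152 residues, together held 44.9%, 50.2%, 51.1% and 56.1% of the gene in libraries 1 to 4, or 50.6% ± 4.58 (SD, n = 4). Adar-202, of 930 residues, held 9.02%, 6.52%, 5.52% and 1.30%. The second quantification gave 31.7% ± 3.94 for the long-form transcripts and 21.7% ± 5.82 for Adar-202, so the division between forms depends on the quantification. The leading transcript was the same in both quantifications for 20 of the 27 members.

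Within the list, the members with the ISRE core did not have the higher median level. The 12 members with the core had a median of 5.25 TPM and the 14 members with an entry but without it 15.9 TPM. The search took only exact matches in windows of 300 bases, so members without the core may hold a variant or more distant element. Members with no entry are in neither set. Of the members with the core 6 of 12 differed beyond counting error, and of those without it 7 of 14, against 30.6% of all tested genes. Library 3 was the lowest for 7 of the 12 with the core and for 8 of the 14 without it by TMM-scaled log2 CPM, against 23.6% of tested genes.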

How the data were processed

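Total RNA of 4 libraries of 1 group was measured. Per the file headers, the authors deposited gene and transcript tables on mm10 with the GENCODE annotation M21, each library alone. Aligner and quantifier names were not given in the sources used here, and the second quantification was derived from 1 read file per library. The deposited expected counts are estimates that are not normalized. The deposited TPM values divide by effective length, which differs between libraries. The deposited percent values give a transcript's share of its gene. The deposited posterior SD of a count was used as another measure of uncertain assignment. The library kit is directional, per the labels' protocols.

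Members and lists were chosen with earlier results of these data known. Spike-ins (at most 0.346% of counts) and numeric identifiers that name no gene (at most 8.75e-05%) stayed out of library sizes and tests. Expected counts were rounded to whole numbers. All 37 members passed the filterByExpr filter, which kept 13118 genes and asks for 10 counts or more. Tests used edgeR 4.0.16 in R 4.3.3 with an intercept only, TMM scaling, trended dispersion and the goodness-of-fit test, Benjamini-Hochberg adjusted at 0.05, and a chi-square test of the counts against a constant share of library size. Log2 CPM used a prior count of 2 and list levels a pseudocount of 1. Ratios of gene pairs used an exact sign-flip permutation test with scipy 1.17.1. The fits were tested on simulated data. Library totals were 15818334, 17335895, 16439475 and 14584388 counts. No pair of libraries agreed within sampling noise (chi-square per degree of freedom 4.59 to 11.3), so none were merged. No molecular identifiers are mentioned in the labels and PCR copies are not independent, so the floors hold for counting error alone. Alternatives were DESeq2 1.42.0, other size factors, spike-in scaling, other filters and pseudocounts, the second quantification and leaving out each library. Named genes are all members, the 3 highest of each pathway list and those of it past the edgeR test, the T cell check and the leading transcripts of members at 5 TPM or more. A gene that this rule names is not reported here, though it remains in its list's counts. Irf7, Tyk2, Slfn1, Ccr9, Pacsin1, Siglech and the Adar isoforms were chosen after their values were seen. Promoter windows are from RefSeq, and no values of other builds were used.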

Additional observations from a re-analysis of the deposited data

Results flagged for a closer look

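In 52 sets of 4 library values, 37 of them members, 1 library stood far from the other three in 5 sets. Chance alone gives about 1 in 20, and the 2 members among these 5, of 37 members, are near that rate. Samhd1 was lowest in library 3, at 119.45 TPM, where the other three had 125.14 to 126.31 TPM. Eif2ak2 was highest in library 4 in TPM, at 10.05 TPM, against 8.19 to 8.42 TPM in the other three. By counts scaled to library size, library 4 did not stand apart for Eif2ak2. Its deviations were 0.17, -0.01, -0.19 and 0.03 log2 CPM in libraries 1 to 4, and its deposited effective length differed 1.27-fold between libraries. The summed TPM of B cell genes was 128.58 in library 4, against 10.87 to 16.07 in the other three. The summed TPM of neutrophil genes was 31.87 in library 2, against 7.63 to 10.67 in the other three. The summed TPM of erythroid genes was 477.63 in library 4, against 11.59 to 47.23 in the other three.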

How the results depend on the processing

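With 1 group and 4 libraries no contrast between conditions exists, 4 libraries limit precision and a gene near the floor of 3 counts is not told from 0. No paired analysis was possible because there is 1 group. Of all values recomputed, 121 kept their direction or size, 22 moved and 2 reversed, and the cause was not tested. The reversed ratios, in the second quantification, were Mx1 to Mx2 at -0.19 and Parp9 to Dtx3l at 0.12. Without library 3 the members beyond counting error were 9, beside 3169 of 13289 genes. Leaving out each library gave 9 to 19 members, beside 2485 to 3179 genes. Spike-in scaling gave 28 members, beside 7890 of 13118 genes. None of the members passed the goodness-of-fit test in any of these. The median range of members was 0.31 with library totals, 0.42 with spike-in scaling, 0.28 over the 32 members with a mean of at least 50 counts, and 0.20 to 0.26 when leaving out each library. Cmpk2 to Rsad2 was 1.49 with a pseudocount of 0.1 and 0.50 in the second quantification. Parp9 to Dtx3l was -0.08 without library 1, and Ifit1 to Ifit3 0.08 without library 4. The mean log2 level was 3.38 with a pseudocount of 0.1 and 3.91 in the second quantification. With spike-in scaling 5 members were highest in library 1 and 17 in library 4, with 0 lowest in library 2 and 2 in library 4. In the second quantification 7 were highest in library 1, 14 in library 2, 1 in library 3 and 15 in library 4. By TMM-scaled log2 CPM 14 were highest in library 2 and 2 in library 4, and 4 were lowest in library 1 and 8 in library 4.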
